A study of Homo sapiens with 4 samples.

Results

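SW480 and SW620 shared 1543 chromatin loops that were not listed in HCT116 or LS513. Loops were taken from H3K27ac HiChIP, which ligates DNA segments that lie close together in fixed nuclei and enriches for those carrying acetylated lysine 27 of histone H3. A loop of SW620 was a member when both of its anchors overlapped, by at least 1 bp, both anchors of a filtered SW480 loop and those of no filtered HCT116 or LS513 loop. Members were 1543 of 62104 filtered SW620 loops, or 2.48%, and 45.1% of the 3425 SW620 loops found in SW480. The members were chosen by their presence and absence in the 4 filtered tables, so these are described and not tested.

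The 4 libraries came from untreated cultures of ATCC lines, 1 library per line: HCT116 (colorectal carcinoma), LS513 (colorectal carcinoma, Dukes' type C), SW480 (colorectal adenocarcinoma, Dukes' type B) and SW620 (colorectal adenocarcinoma, Dukes' type C). All were fixed with 1% formaldehyde for 10 minutes and digested with MboI. As there was 1 library per line, no difference has a replicate check, and a line cannot be told apart from its library. Filtered paired-end tags (PETs, ligated read pairs joining both anchors) numbered 152421 in SW620, 13885 in SW480, 81579 in HCT116 and 222113 in LS513, so 1 PET was worth 6.56, 72.0, 12.3 and 4.50 normalised PETs (PETs per 1000000 filtered PETs). A count of 0 allowed up to 3 counts, or 36.8 normalised PETs in HCT116, 13.5 in LS513 and 216 in SW480. An anchor within 10 kb was present at 9 of 10 colorectal epithelial marker genes in HCT116 and LS513, 6 in SW480 and 7 in SW620. At the 2 leukocyte markers, 1 had an anchor in HCT116, LS513 and SW620 and 2 in SW480, and the fibroblast marker COL1A2 had none in any library.

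One property of the files touches every absence below. HCT116 and LS513 had 21810 identical anchors, 99.5% and 98.5% of all their anchors, while SW480 and SW620 had 527 identical anchors. A missing anchor in HCT116 and LS513 is therefore close to 1 observation and not 2. The source of the anchors is not given in the sources used here. Where a library has no anchor its tables list no PETs, so signal there was not measured in that library and is not a count of 0.

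H3K27ac marks active promoters and enhancers, and a HiChIP loop joins a pair of such places, often a promoter and a distal enhancer. SW480 and SW620 were established from the primary tumour and a later lymph node metastasis of the same patient, whereas HCT116 and LS513 came from other patients. Most colorectal cancers carry an active WNT pathway, in which beta-catenin binds TCF/LEF factors at target genes such as AXIN2, SP5 and RNF43.

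For orientation, RefSeq promoter sequences (GRCh38.p14, 250 bases before to 50 after the gene start, sense strand, 5′ to 3′) are shown for 4 genes whose start lay in a member anchor. SP5 and RNF43 are WNT target genes at loops described below. TPM4 and TMEM163 were, with RNF43, gene starts covered by an SW620 anchor and by no HCT116 or LS513 anchor, and of the 3 only the TMEM163 start was covered by an SW480 anchor. Capitals mark the TCF/LEF core CTTTGAT, searched on both strands (reverse ATCAAAG).

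SP5: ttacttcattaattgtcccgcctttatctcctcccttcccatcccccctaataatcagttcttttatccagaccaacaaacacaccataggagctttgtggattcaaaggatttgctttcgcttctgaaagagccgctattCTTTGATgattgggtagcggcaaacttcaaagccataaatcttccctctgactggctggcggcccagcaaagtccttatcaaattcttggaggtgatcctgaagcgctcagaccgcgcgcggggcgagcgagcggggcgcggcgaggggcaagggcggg
RNF43: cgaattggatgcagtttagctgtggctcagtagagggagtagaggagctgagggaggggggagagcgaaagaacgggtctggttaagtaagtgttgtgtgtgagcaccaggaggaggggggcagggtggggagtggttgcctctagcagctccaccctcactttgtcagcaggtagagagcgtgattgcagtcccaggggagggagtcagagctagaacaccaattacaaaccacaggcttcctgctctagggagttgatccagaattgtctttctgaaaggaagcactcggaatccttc
TPM4: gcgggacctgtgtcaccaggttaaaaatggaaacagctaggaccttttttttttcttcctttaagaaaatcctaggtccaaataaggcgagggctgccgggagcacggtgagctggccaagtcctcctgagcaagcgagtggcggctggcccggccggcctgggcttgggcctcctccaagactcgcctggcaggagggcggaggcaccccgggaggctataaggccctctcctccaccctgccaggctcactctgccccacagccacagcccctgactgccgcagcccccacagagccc
TMEM163: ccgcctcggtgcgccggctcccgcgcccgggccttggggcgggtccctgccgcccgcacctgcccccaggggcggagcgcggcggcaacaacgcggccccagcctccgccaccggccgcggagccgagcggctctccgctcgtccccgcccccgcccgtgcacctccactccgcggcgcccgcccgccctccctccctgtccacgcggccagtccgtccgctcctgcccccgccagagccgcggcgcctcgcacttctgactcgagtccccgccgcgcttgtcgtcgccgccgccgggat

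SP5 held 1 CTTTGAT and the others none. Of all 35116 promoters in the table, 2.62% held it. The AP-1 motif TGANTCA, which reads the same on both strands and was held by 7.71% of all promoters, was in none of the 4. APCDD1 and GPA33, also matched, held neither motif. In all 6 of the 9 genes looked up were matched, and AXIN2, CCND1 and PROX1 were not. SP5 and TPM4 lie on the plus strand, RNF43 and TMEM163 on the minus strand.

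Most members were weak. They held 6495 SW620 PETs, 4.26% of all filtered SW620 PETs, with a median of 2 PETs, a highest of 134 and 38.8% at 1 PET. Members with 10 or more PETs numbered 150, or 9.72%, against 34.7% of the 1414 loops found in all 4 libraries and 0.988% of the 35509 loops listed in SW620 alone. Among SW620 loops found in SW480, members made up 63.1% of those with 1 SW620 PET, 48.4% at 2 to 4, 36.2% at 5 to 9, 26.7% at 10 to 19 and 16.6% at 20 or more. The share thus fell in each step as the SW620 count rose. It was no trait of loops found in SW480. Of SW620 loops not found there, the share in neither HCT116 nor LS513 also fell in each step, from 70.6% at 1 PET to 19.3% at 20 or more. A column without a header in the authors' deposited table was read here as an FDR. It was under 0.01 in SW620 for 412 members (26.7%), against 17.2% of all SW620 loops and 55.6% of loops found in all 4.

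Members matched 1456 distinct SW480 loops, 20.7% of the 7024 listed there. Of the members, 336 shared their SW480 loop with another member, and up to 6 members fell on 1 SW480 loop, so they are not independent. At 1 PET in both libraries stood 382 members, at 2 or more in both, with SW480 PETs summed over matched loops, 528, at 5 or more in both 93 and at 10 or more in both 20. With the same column read as an FDR, 160 were under 0.01 in both libraries. Members used 1783 distinct SW620 anchors with a median length of 8.59 kb, against 4.54 kb for all SW620 loop anchors.

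The median span between anchor midpoints was 67.1 kb (quartiles 30.3 and 156) for members. It was 60.0 kb for loops found in all 4 libraries, 75.2 kb for loops of SW620, HCT116 and LS513 without SW480, 195 kb for loops of SW620 alone and 147 kb for all SW620 loops. Members under 0.01 in both libraries in the column read as an FDR had a median of 137 kb, and those with at least 2 PETs in both 45.5 kb. Of the members 1.17% spanned more than 1 Mb, against 7.87% of all SW620 loops. By span, the part of SW480-found loops that were members was 53.0% at 5 to 20 kb, between 42.6% and 44.8% from 20 to 500 kb, and 57.3% at 500 kb to 2 Mb. The share thus changed little over most spans, and all SW620 loops found in SW480 were about as short as the members, with a median of 68.7 kb.

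**Figure D1:**
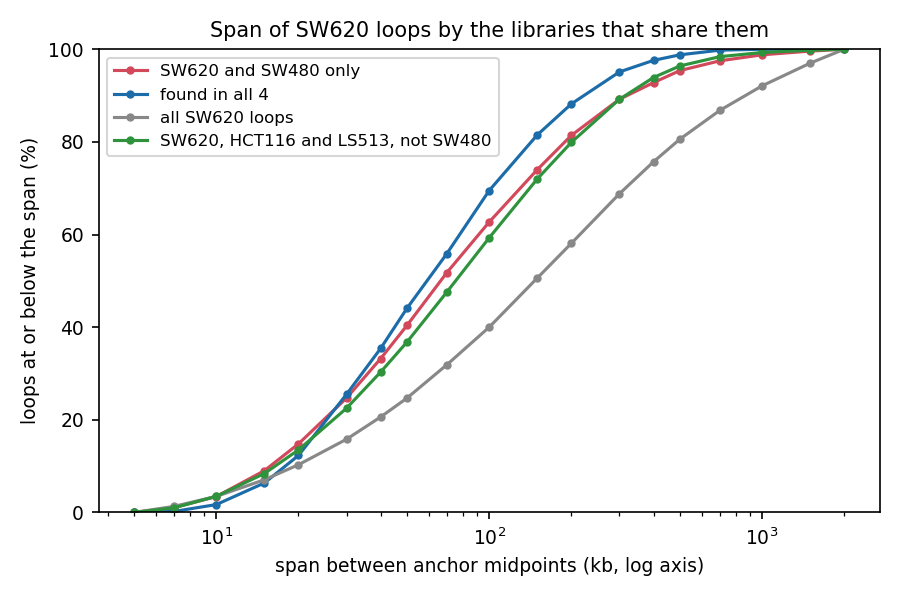
Cumulative percent of SW620 loops (vertical axis) at or below a span between anchor midpoints (kb, log axis), for 4 classes of SW620 loops. The curve of loops of SW620 and SW480 only (median 67.1 kb) runs close to that of loops found in all 4 libraries (60.0 kb) and left of all SW620 loops (147 kb).

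The split by anchors separated 4 situations. HCT116 and LS513 had anchors overlapping both ends at 250 members (16.2%, 95% Clopper-Pearson interval 14.4 to 18.1), at 1 end at 928 (60.1%, 57.6 to 62.6) and at neither end at 364 (23.6%, 21.5 to 25.8). At 1 further member the libraries differed. At most members, therefore, HCT116 and LS513 could not have listed the loop. The same split of loops in SW620 alone was 35.4%, 51.0% and 13.4%, and of all SW620 loops 61.0%, 30.7% and 8.24%. These intervals, like all below, cover counting error only.

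Even anchors at both ends did not always allow a loop. At 30 of the 250 members HCT116 or LS513 had no 2 different anchors over the ends with midpoints 5 kb to 2 Mb apart. Where a single anchor reached over both SW620 anchors, a contact there would count as an anchor joined with itself (a self-pair). These 30 had a median span of 11.8 kb and a median of 5 PETs. The other 220 had 2 different anchors in both libraries, within the range of distances of the filtered tables. They had a median span of 155 kb, a median of 1 PET and a highest of 29, and 115 of them had 1 PET.

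**Figure D2:**
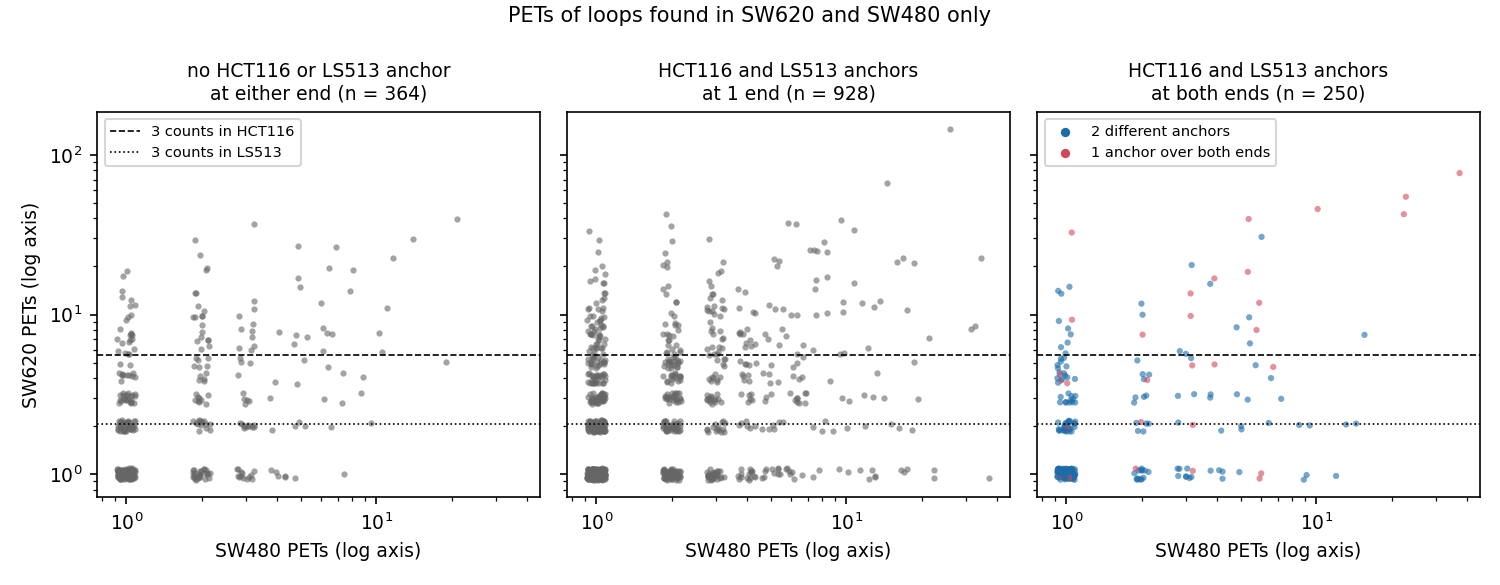
SW620 PETs (vertical, log axis) against summed PETs of the overlapping SW480 loops (horizontal, log axis), 1 point per member with a small random shift, by the number of ends with HCT116 and LS513 anchors. Lines mark the SW620 PETs equal in rate to 3 counts in HCT116 (dashed) and LS513 (dotted), and of the 220 members with 2 different anchors (blue) most lie under the dashed line. Red points are the members with anchors at both ends at which HCT116 or LS513 lacked such a pair.

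The 6 strongest members of the part with anchors at both ends were all of the single-anchor kind. At PADI1, a peptidylarginine deiminase gene, chr1:17515369-17543763 joined chr1:17545022-17569120 with 83 PETs in SW620 and 36 in SW480. HCT116 and LS513 listed 1 anchor there, chr1:17529132-17566642, with 411 and 1321 self-pair PETs. At DLGAP1, which encodes a synaptic scaffold protein, chr18:3589423-3599294 joined chr18:3600685-3629272 with 55 PETs in SW620 and 24 in SW480, where the single anchor held 1007 self-pair PETs in HCT116 and 657 in LS513. Self-pairs were thus listed in all 4 lines at both places, and HCT116 and LS513 had no pair of anchors between which a loop could be counted.

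A further 3 of the 6 had the same form. At TRIB3, a stress-induced pseudokinase gene, the loop held 48 SW620 and 10 SW480 PETs, and the single anchor 1084 self-pair PETs in HCT116 and 1190 in LS513. At HNRNPF, a splicing factor gene, the loop held 37 and 5 PETs and the anchor 401 and 774. At WNT10A, a WNT ligand gene, the loop held 31 and 1 PETs and the anchor 405 and 787.

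The absence could be read as a count of 0 only at the 220 members with 2 different anchors. Above the rate of 3 counts in both HCT116 and LS513, which took 6 SW620 PETs for HCT116 and 3 for LS513, stood 20 of these 220 (9.09%), with 0.596% of the 12411 SW620 loops with such anchors that HCT116 and LS513 did not list as background. Over all 1543 members 303 (19.6%) were above that rate, with a background of 3.62% of 37052 SW620 loops in neither library. The rest of the 303, beyond those 20, lay where HCT116 or LS513 had no pair of anchors that could list the loop. The count needs SW620 PETs, and members tended to have more of them than loops in SW620 alone, so these shares follow from the PET counts and are no result about the members.

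The 6 strongest of the 220 were chosen after their values were seen. The first joined chr2:62682678-62707080 to chr2:62793735-62808581, 106 kb apart. SW620 held 29 PETs (190 normalised), SW480 6 (432 normalised) and HCT116 and LS513 0. With 0 set to 3 counts, the SW620 rate was 5.17 times that of HCT116 and 14.1 times that of LS513. These values leave out the counting error of the SW620 PETs, and the 0 was fixed by the member rule. Its second end held 9 self-pair PETs in HCT116 and 6 in LS513, against 140 in SW620 and 59 in SW480, and its first 109 and 77 against 168 and 46. The same first anchor joined chr2:62727076-62735096 with 15 PETs in SW620, 4 in SW480 and 0 in the others.

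The other four were on chromosomes 20, 3, 11 and 6. On chromosome 20, chr20:56661866-56693320 joined chr20:56747955-56762022 with 19 PETs in SW620 and 3 in SW480. With 0 set to 3 counts as above, the SW620 rate of this loop was 3.39 times that of HCT116 and 9.23 times that of LS513. Its first end held 188 self-pair PETs in SW620 and 44 in SW480, but 2 in HCT116 and 15 in LS513. On chromosome 3, chr3:193655642-193670726 joined chr3:193849348-193868779 with 16 PETs in SW620 and 1 in SW480, and its first end held 1 self-pair PET in HCT116 and 0 in LS513 against 43 in SW620. On chromosome 11, chr11:82695538-82724570 joined chr11:82742178-82786256 with 15 PETs in SW620 and 1 in SW480, and its first end held 0 self-pair PETs in both HCT116 and LS513 against 51 in SW620. On chromosome 6, chr6:1195052-1207626 joined chr6:1320693-1329820 with 14 PETs in SW620 and 1 in SW480, and here both ends held self-pairs in every library, from 12 in SW480 at the second to 185 in SW620 there. An end with fewer than 16 self-pair PETs in both HCT116 and LS513 was thus seen at the loops on chromosomes 2, 20, 3 and 11, and not on chromosome 6. This limit was not set in advance, and the counts are not scaled to library totals. SW480 also held fewer than 16 at both ends on chromosomes 3 (8 and 7) and 11 (14 and 9). The same held for SW480 at the second end on chromosome 6 (12), and for SW620 at chr2:62727076-62735096 (15).

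Among all SW620 loops with 2 different anchors in HCT116 and in LS513, those found in SW480 were less often missing from both at low counts. Of 2101 such loops found in SW480, 220 (10.5%) were in neither HCT116 nor LS513, and of those not found in SW480 12191 (34.5%). At 1 SW620 PET the shares were 24.7% and 48.3%, and at 2 to 4 PETs 11.3% and 17.9%. At 5 to 9 PETs they were 4.62% and 3.42%, and at 10 or more 1.69% (9 of 531) and 0.431% (5 of 1159). The order of the shares turned with the PET count, and at 5 or more PETs few loops with anchors available were missing from both HCT116 and LS513.

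**Figure D3:**
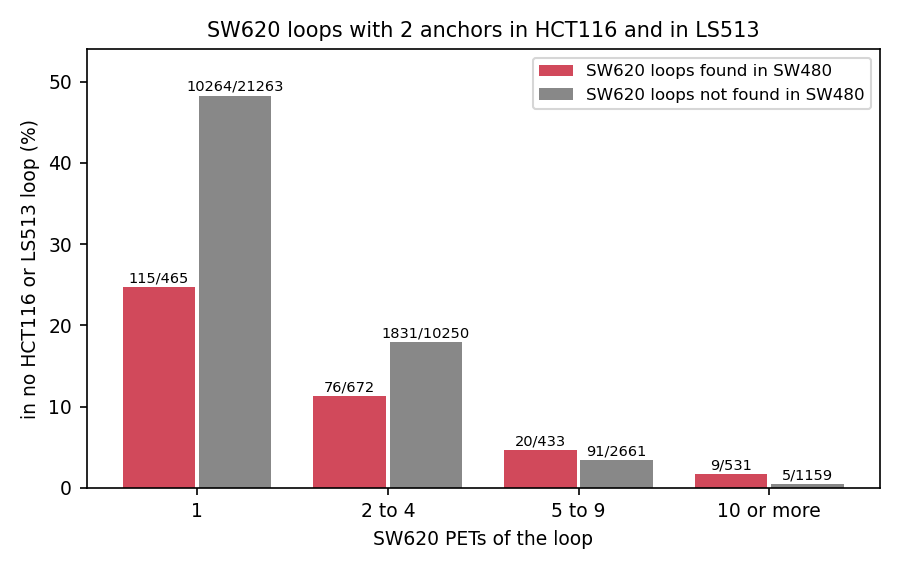
Percent of SW620 loops in no HCT116 or LS513 loop (vertical axis), by SW620 PETs of the loop (horizontal axis), among loops at which HCT116 and LS513 have 2 different anchors, with counts above the bars. The share falls from 24.7% (found in SW480) and 48.3% (not found) at 1 PET to 1.69% and 0.431% at 10 or more.

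Self-pairs, whose counts the rule did not use, gave a measure at the anchors themselves, from the same libraries as the loops. Self-pair PETs totalled 844521 in SW620, 130508 in SW480, 863012 in HCT116 and 1386645 in LS513, and rates are per 1000000 of these. Of the 1783 member anchors 903 (50.6%) overlapped an anchor of both HCT116 and LS513, against 62.2% of all SW620 loop anchors. The 880 without one had a median of 23.7 normalised self-pair PETs in SW620, and the 903 with one 69.9. Over all SW620 loop anchors these medians were 8.29 and 23.7.

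Where member anchors overlapped anchors of the other lines, SW620 had the higher self-pair rate more often than over all anchors. The median ratio of SW620 to HCT116 was 1.31 at 905 member anchors and 0.722 at 13828 anchors of all SW620 loops. The ratio to LS513 was 1.38 at 904 member anchors and 0.807 over all. SW620 was higher than HCT116, with the interval of the ratio above 1, at 44.6% of the member anchors against 16.8% of all, and lower at 190 of the 905 against 33.3% of all. For LS513 these shares were 47.2% against 18.9%, and 21.2% against 30.1%. At anchors of the 220 members with 2 different anchors the median ratios were 1.61 to HCT116 and 1.98 to LS513, and per kb of anchor 1.08 and 1.27.

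Anchor length moved with these ratios. Member anchors overlapping HCT116 had a median of 10.2 kb, while the HCT116 anchors under them summed to 6.33 kb, and over all SW620 anchors the lengths were 4.71 and 5.10 kb. Per kb of anchor the median ratio at member anchors was 0.953 to HCT116, below 1, and 1.05 to LS513, against 0.738 and 0.833 over all. Members stood above all anchors on both scales, but whether SW620 exceeded HCT116 at them depended on the scale. Member anchors had to belong to a loop found in SW480 and listed in neither HCT116 nor LS513. The set of all SW620 anchors was under no such requirement, and its part in the ratios was not tested.

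Rates in SW620 and SW480 differed at the members about as often as at all SW620 loops found in SW480. The exact 95% interval of the ratio of normalised PETs, SW620 over the summed overlapping SW480 loops, lay below 1 at 472 members (30.6%) against a background of 29.3% of SW620 loops found in SW480. It lay above 1 at 0 members against 0.0292%, which is 1 loop of 3425. No p-value was computed, as each line had 1 library. The median ratio was 0.0911, the ratio of 1 PET to 1 PET, against 0.182 over all loops found. A member needs at least 1 SW480 PET, which is 72.0 normalised PETs, which favours this direction. With minimums matched to 1 SW480 PET (11 PETs in SW620), 84 of 312 members were lower and 0 higher. Counted from SW480 loops with SW620 PETs summed, 274 of 1507 were lower and 7 higher. The shares over all loops found in both lines were not computed under these settings, so these counts are no result about the members.

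At the anchors of members, self-pairs pointed the same way, with a median ratio of SW620 to SW480 of 0.424 against 0.490 over all SW620 anchors overlapping SW480. These medians again leave out anchors with no self-pair PETs in SW480. SW620 was lower at 55.7% of member anchors against 43.1% of all, and higher at 4.21% against 6.36%. These rates are shares of each library's own total, and SW480 spread its PETs over fewer anchors (9350 against 24555). The part of the anchor number in these ratios was not tested.

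Of the loops whose interval started highest, the one at TBX2 and TBX4, T-box transcription factor genes, joined chr17:59458781-59504584 to chr17:59534510-59577598 with 45 PETs in SW620 and 2 in SW480 (ratio 2.05, interval 0.535 to 17.4). On chromosome 20, chr20:56565490-56601726 joined chr20:56661866-56693320 with 35 PETs against 1 (3.19, 0.536 to 129). The WNT10A loop had a ratio of 2.82 (0.471 to 115), and the SERINC5 loop, with 28 PETs against 1, 2.55 (0.422 to 104). All 4 intervals include 1.

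The loops whose interval ended lowest had 1 PET in SW620. A loop at PADI1, chr1:17507969-17514661 to chr1:17545022-17569120, matched the same 36-PET SW480 loop as the strong one and had a ratio of 0.00253 (6.24e-05 to 0.0150). On chromosome 17 at CEP112, a centrosomal protein gene, chr17:63673330-63675927 and chr17:63677817-63680473 each joined chr17:63737193-63751510 with 1 PET and matched 1 SW480 loop of 21 PETs (0.00434). On chromosome 13, chr13:44802064-44808383 joined chr13:44845121-44862990 and chr13:44872261-44889174 with 1 PET each, against 17 in SW480 (0.00536). In each case 1 SW480 loop matched several SW620 loops, and the ratio of a single SW620 loop leaves out the PETs of the others.

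The strongest member lay at FIBCD1, an acetyl-binding receptor gene on chromosome 9. It joined chr9:133792126-133839805 to chr9:133844542-133875027 with 134 PETs in SW620 (879 normalised) and 25 in SW480 (1801 normalised). Its first end held 443 self-pair PETs in SW620, 101 in SW480, 197 in HCT116 and 751 in LS513. Its second end had no HCT116 or LS513 anchor and held 62 self-pair PETs in SW480 and 350 in SW620. At SLC39A11, a zinc transporter gene, chr17:70565098-70640132 joined chr17:70647032-70662293 with 65 PETs in SW620 and 14 in SW480, with an anchor of HCT116 (770 self-pair PETs) and LS513 (865) at the first end only.

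The same 1-ended form held at the TBX2 loop, where HCT116 and LS513 had 198 and 173 self-pair PETs at the first end, SW620 446, and no anchor at the second. At CD82, a tetraspanin known as a metastasis suppressor, chr11:44580141-44610513 joined chr11:44611621-44638884 with 37 PETs in SW620 and 6 in SW480. Its first end held 9 self-pair PETs in HCT116 and 16 in LS513, against 53 in SW480 and 239 in SW620. At ATP10A, a phospholipid flippase gene, chr15:26007249-26034135 joined chr15:26128545-26151594 with 36 PETs in SW620 and 6 in SW480, and the end away from the gene held 244 self-pair PETs in SW620, 54 in SW480, 11 in HCT116 and 25 in LS513. At these ends all 4 libraries had an anchor, and SW620 held more self-pair PETs than the deeper LS513, in counts not scaled to anchor length.

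Members without an HCT116 or LS513 anchor at either end were led by 37 PETs in SW620 and 21 in SW480 between chr3:98669608-98692717 and chr3:98693532-98704375. The loop at BTBD16, chr10:124036118-124072454 to chr10:124082286-124112052, held 36 and 3 PETs. The loop at NAV2, a neuron navigator gene, held 31 and 2, that at TMEM163, a zinc efflux transporter gene, 30 and 13, and that at TPM4, a tropomyosin gene, 27 and 5. A loop on chromosome 15, chr15:70010421-70020919 to chr15:70022261-70057336, held 26 and 7. Self-pair PETs at both ends of these loops ran from 58 to 334 in SW620 and from 15 to 181 in SW480.

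A set of 3 members shared the strongest SW480 loop outside PADI1, with 32 PETs on chromosome 19 near SLC1A5, a glutamine transporter gene. They joined chr19:47293932-47297213 to chr19:47315182-47331096 with 22 SW620 PETs, chr19:47297896-47301010 to the same second anchor with 8, and chr19:47303410-47311337 to chr19:47312061-47314186 with 9. The last of these overlapped the SW480 anchor by 124 bp only, the smallest overlap of any member. The next smallest were 135 and 349 bp, and 14 members overlapped by under 500 bp at an end. On the other side of the rule, the smallest overlap that left out a loop was 265 bp, on chromosome 9, followed by 551 and 577 bp. An HCT116 or LS513 loop lay within 1 kb of 49 members and within 5 kb of 206.

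The longest members spanned 1933 kb on chromosome 17, 1635 kb on chromosome 1 and 1601 kb on chromosome 5, each with 1 PET in SW620 and 1 in SW480. HCT116 and LS513 had 2 different anchors at all 3, and 0 PETs.

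Joined through overlapping anchors, the members formed 531 groups, of which 295 held 1 member and 26 held 10 or more, with 33.0% of all members. The 8 largest held 16.8%. In 236 of the 531 groups neither HCT116 nor LS513 listed a loop between the group's ends. No such share was computed for other SW620 loops. In the 295 groups of 1 member the rule already bars an HCT116 or LS513 loop over both anchors, so the count is no result about these places.

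The largest group lay at PHLDA1, an ERK-responsive gene, and NAP1L1, a histone chaperone gene, between 75920492 and 76955820 on chromosome 12. It held 69 members on 25 anchors, with 186 SW620 PETs and 185 SW480 PETs in the 53 loops matched. The whole stretch held 127 loops in SW620, 97 in SW480, 61 in HCT116 and 57 in LS513, or 2828, 20022, 1741 and 887 normalised PETs. Of its members 46 had HCT116 and LS513 anchors at 1 end, 13 at neither and 10 at both. Loops here were thus present in every line, and the members were mostly those that reached places without an HCT116 or LS513 anchor. The anchors with most members, chr12:76043719-76062487 and chr12:76156540-76163797 with 11 each, had none in these libraries, and held 172 and 50 self-pair PETs in SW620 and 141 and 27 in SW480.

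The group of 26 members at NAV2 on chromosome 11, 19295841 to 19753257, was of another form. SW620 listed 78 loops with 293 PETs there and SW480 30 loops with 64 PETs, while HCT116 and LS513 had 1 anchor each and 0 loops. All 26 SW620 loops found in SW480 at this place were members, the strongest with 35 PETs. At the NAV2 start SW620 held 220 self-pair PETs and SW480 53.

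**Figure D4:**
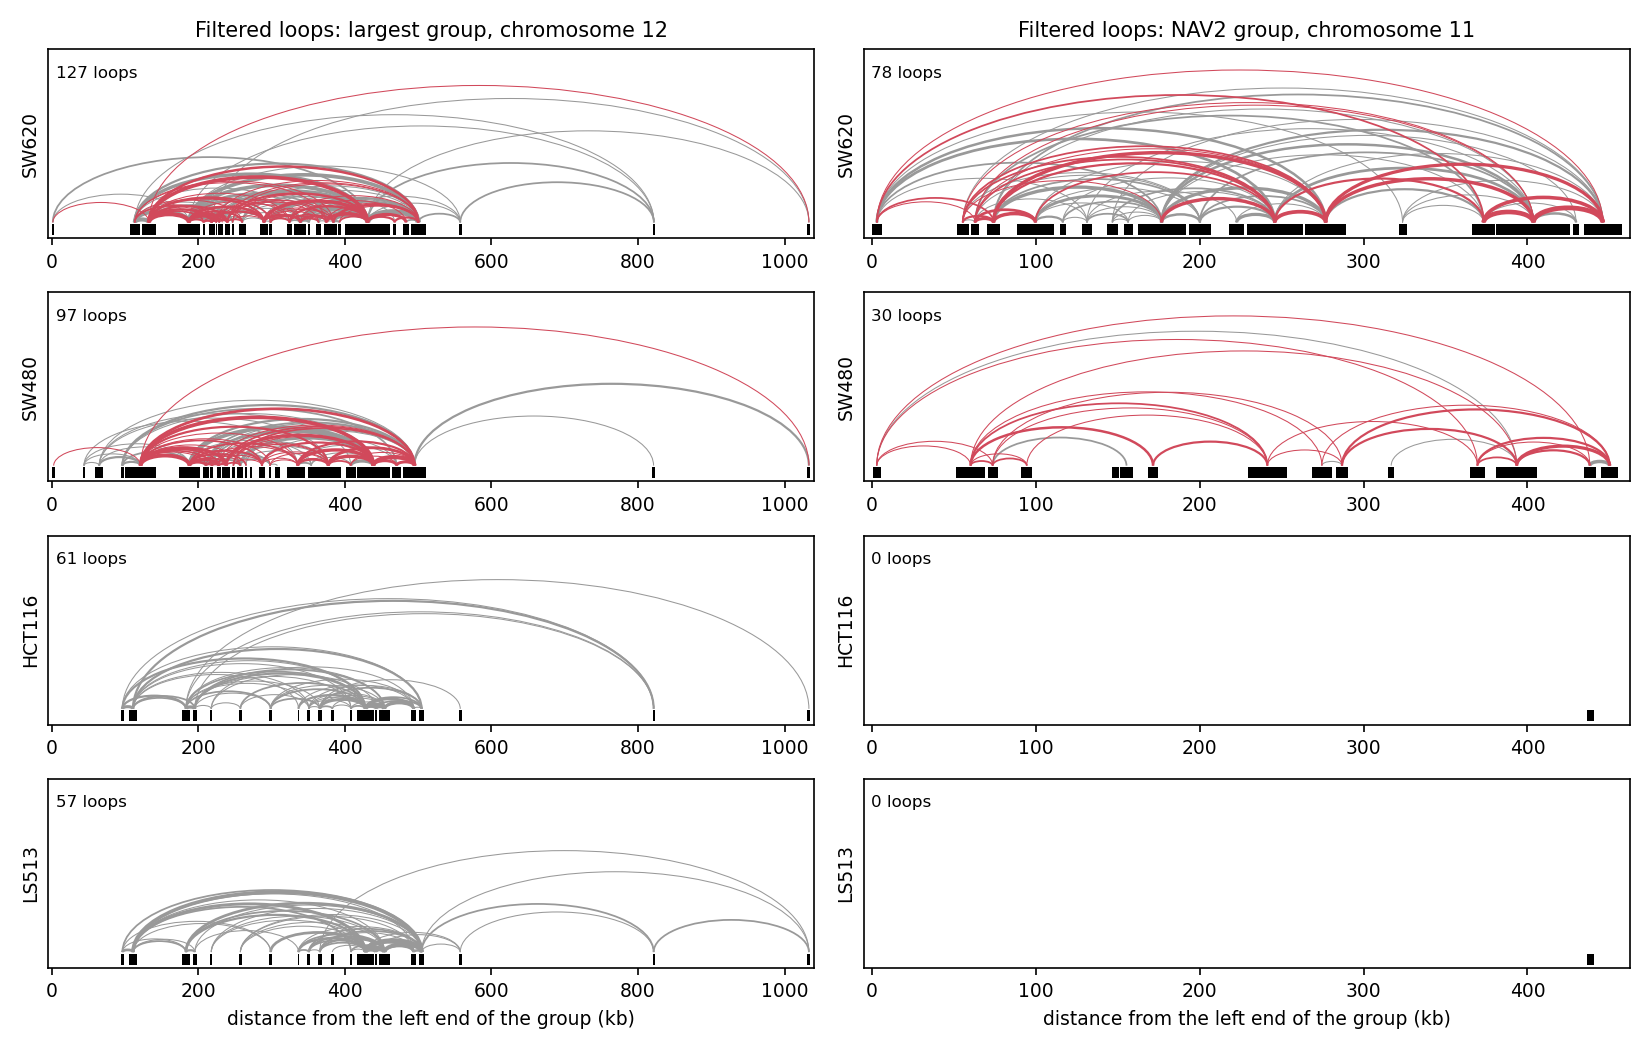
Filtered loops (arcs, thicker with more PETs) and anchors (black boxes) of the 4 libraries along the groups on chromosome 12 (left) and at NAV2 on chromosome 11 (right), by distance from the left end of the group in kb. Red arcs are members in SW620 and the SW480 loops they match. HCT116 and LS513 list 61 and 57 loops on the left and 0 on the right, where each has 1 anchor.

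Further groups of both forms followed. On chromosome 10, from 28949747 to 29450815 near BAMBI, a decoy receptor gene of TGF-beta signalling, 39 of 40 SW620 loops found in SW480 were members, with 62 SW620 loops, 25 in SW480, 5 in HCT116 and 3 in LS513. On chromosome 15, from 101195777 to 101421928, 22 of 23 were members, and HCT116 and LS513 listed 1 loop each. On chromosome 17, from 63282183 to 65376952 around AXIN2 and CEP112, 37 of 103 were members, with 280 loops in SW620, 86 in SW480, 91 in HCT116 and 143 in LS513. On chromosome 14, from 68645217 to 69623095 at ZFP36L1, an mRNA decay factor gene, 22 of 31 were members, with 51 loops in HCT116 and 89 in LS513.

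Chromosome 2 from 171290763 to 173331706, at SP5, held 22 members with 150 SW620 and 38 SW480 PETs. Chromosome 12 from 93380890 to 93774070 held 22 members, with 9 loops in HCT116 and 17 in LS513. Like NAV2, smaller groups had 0 HCT116 and LS513 loops. These were 13 members at 101383516 to 101621985 on chromosome 2, 12 at RNF43 on chromosome 17, 9 at 99334479 to 99662036 on chromosome X and 9 at 189698130 to 190108101 on chromosome 3. On chromosomes X and 3 these stretches had no HCT116 or LS513 anchor at all.

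By chromosome, the share of SW480-found loops that were members ran from 13.5% (95% interval 5.59 to 25.8) on chromosome 22 to 65.5% (51.9 to 77.5) on chromosome 18, beside 45.1% over all. These intervals treat loops as independent, which loops of the same group are not. On chromosome 18 a single group (9971959 to 10527958) held 20 of 38 members and 26 of 58 loops found in SW480. On chromosome 17 the group around AXIN2 held 37 of 98 members and 103 of 338 loops found. Chromosomes 16 (20.6%), 19 (21.3%) and 17 (29.0%) were also low, and 13 (60.6%) and 15 (59.7%) high. The chromosomes with the highest counts were 12 (172 members), 2 (167) and 1 (132), or 11.1%, 10.8% and 8.55% of members. They held 10.2%, 9.49% and 9.81% of all SW620 loops found in SW480. The SW480 library itself was uneven, with 2.41% of its filtered PETs on chromosome 19 against 6.85% in SW620, and 2.67% on chromosome 18 against 0.794%. Copy number differs between these lines and was not measured, so its part in these shares was not tested.

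**Figure D5:**
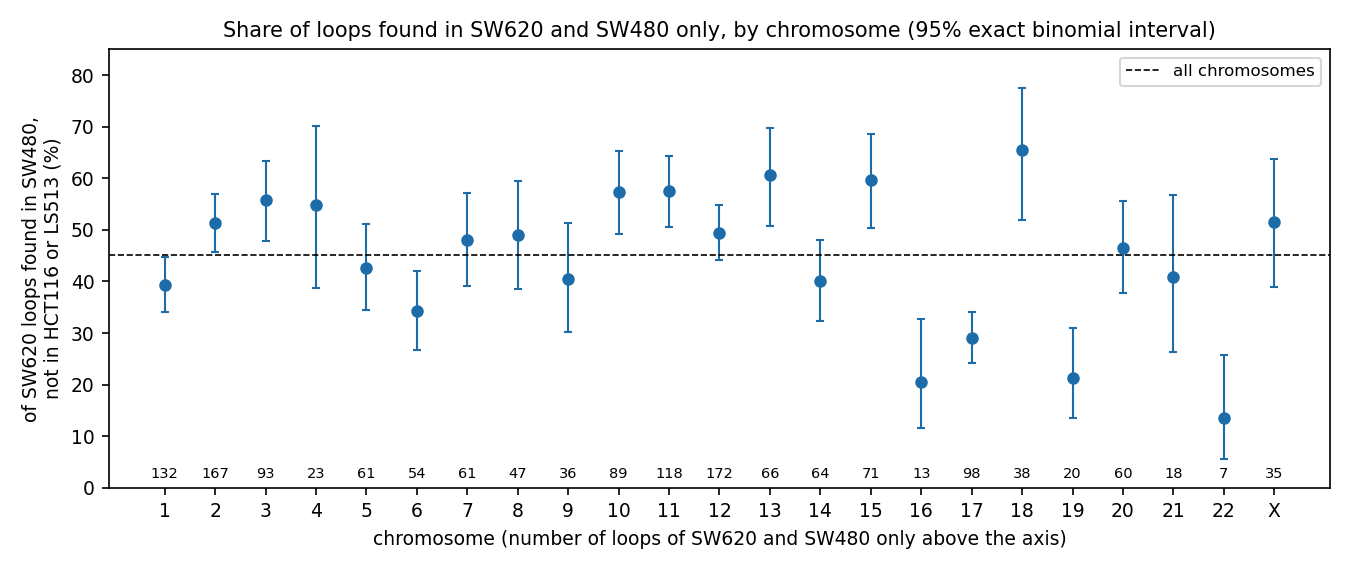
Percent of SW620 loops found in SW480 that were in no HCT116 or LS513 loop, by chromosome, with exact 95% binomial intervals and the number of members above the axis. The intervals of chromosomes 1, 6, 16, 17, 19 and 22 lie below the dashed line for all chromosomes (45.1%), and those of 2, 3, 10, 11, 13, 15 and 18 above it. The intervals treat loops as independent, which loops of the same group are not.

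Genes were set beside members by hg19 places known from general knowledge, without an hg19 annotation, and are given as names with no coordinates of their own. A gene counted when a member anchor lay over it or within 10 kb. Over 6 gene lists, 27 of 81 placed genes had a member anchor and 40 an anchor of any SW620 loop found in SW480. Of the SW620 loops found in SW480 at these genes 39.5% were members, beside 45.1% over all loops found, so the lists as a whole held no larger share of members than the background.

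Of the 20 WNT targets and feedback genes, 11 had an anchor of a loop found in SW480 and 7 of a member, and 32.4% of their loops found in SW480 were members. At AXIN2, a feedback scaffold of the destruction complex, 7 of 43 were members, the strongest with 12 SW620 and 2 SW480 PETs. At the AXIN2 start HCT116 held 272 self-pair PETs, LS513 623, SW480 119 and SW620 436. Most loops found at AXIN2 were therefore also listed in HCT116 or LS513.

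At RNF43, a ubiquitin ligase that removes WNT receptors, all 12 loops found in SW480 were members. None of the 12 had 2 different anchors in HCT116 and LS513, so this count was fixed by the anchors and is no result about RNF43. The 12 loops held 62 SW620 PETs in all, the strongest joining chr17:56453088-56482659 to chr17:56489396-56495613 with 20 PETs in SW620 and 8 in SW480. Its start, whose sequence is given above, lay in an SW620 anchor with 76 self-pair PETs, and no HCT116 or LS513 anchor lay over the gene or within 10 kb. The SW480 anchors of these loops did not cover the start either, so at the start itself only SW620 of the 4 libraries gives a value, and HCT116 and LS513 give none at the whole gene.

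SP5, a transcription factor gene induced by WNT, had 4 members of 6 found. The strongest joined chr2:171540895-171555237 to chr2:171565639-171575899, which holds the SP5 start and the CTTTGAT shown above, with 37 PETs in SW620 and 9 in SW480. The SP5 end held 304 self-pair PETs in SW620, 77 in SW480, 70 in HCT116 and 314 in LS513, and the distal end had no HCT116 or LS513 anchor and held 67 in SW480 and 111 in SW620. At SP5 the promoter was thus marked in all 4 lines, and the member reached an upstream place listed as an anchor in SW480 and SW620 only among the 4.

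APCDD1, an inhibitor of WNT receptors, had 5 members of 7, the strongest with 6 PETs in SW620 and 13 in SW480, and 4 of them had 2 different anchors in HCT116 and LS513. CCND1, a cyclin gene, had 3 of 7, with at most 5 SW620 PETs. NKD1, a WNT antagonist gene, had 1 of 5 with 3 PETs. PROX1, a homeobox gene, had 1 of 1, with 8 PETs in SW620 and 1 in SW480, and its start held 290 self-pair PETs in SW620 with no anchor in the other 3 libraries. ASCL2, ZNRF3, EPHB3 and TCF7L2 had loops found in SW480 but no member.

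Of 24 epithelial and intestinal genes 5 had a member anchor and 9 an anchor of a loop found in SW480, and 45.2% of their loops found were members. EHF, an epithelial ETS factor gene, had 11 of 17, none of them with 2 different anchors in HCT116 and LS513. The strongest joined chr11:34633820-34679829 to chr11:34696304-34708334 with 26 PETs in SW620 and 8 in SW480. Its start held 319 self-pair PETs in SW620, 131 in SW480, 53 in HCT116 and 94 in LS513. SW480 held more than the deeper LS513, in counts not scaled to anchor length. KLF5, a crypt cell factor gene, had 4 of 7 with at most 6 SW620 PETs, and CDX2 and GPA33 had 1 and 2 with at most 2. None of the members at KLF5, CDX2 and GPA33 had such a pair of anchors either. CDH1, EPCAM, KRT8 and KRT18 had loops found in SW480 and no member. None of 7 placed mesenchymal genes had a loop found in SW480, so that list could hold no member.

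Of 14 ERBB and ERK genes 7 had a member anchor and 9 an anchor of a loop found in SW480, with 52.8% of the loops found being members. PHLDA1 had 9 of 15, the strongest with 5 PETs in SW620 and 6 in SW480, and 1 of the 9 had 2 different anchors in HCT116 and LS513. The feedback inhibitors DUSP4, SPRY2 and SPRY4 had 3, 2 and 1 members, with at most 5, 6 and 2 SW620 PETs and none with such anchors. The receptor genes EGFR and MET had 1 and 2 members at 1 and 2 PETs, and of these only the EGFR member had such anchors. Of 10 TGF-beta and BMP genes 6 had a member anchor of 7 with a loop found, with 45.9% of the loops found being members. BAMBI had 7 of 7 with at most 4 SW620 PETs, SMAD3, a signal transducer gene, 3 of 9 with at most 9, and the ligand gene BMP4 3 of 11 with at most 3. None of the members at these 3 genes had 2 different anchors in HCT116 and LS513. Of 6 AP-1 genes 2 had a member, JUN and FOSL2, each with 1 SW620 PET, and only the FOSL2 member had such anchors.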

How the data were processed

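H3K27ac HiChIP had been run on 4 untreated colorectal cancer lines, 1 library each. Per the submitters' processing notes HiC-Pro and hg19 (GRCh37) were used. For the loop caller, the peak caller, the anchors and tool versions the entry is "not given in the sources used here". In content, the deposited tables hold whole-number counts of PETs per anchor pair, self-pairs included in the first table and pairs with anchor midpoints 5 kb to 2 Mb apart in the filtered one. The deposited mango table adds a value from 0 to 1 without a header, read here as a p-value adjusted to an FDR. Chromosomes 1 to 22 and X were used.

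Loops were matched by overlap of both anchors of at least 1 bp, and SW480 PETs were summed over matched loops. Ratios have exact conditional 95% intervals, shares Clopper-Pearson intervals, and both cover counting error only, since PETs carry no molecular identifiers. A count of 0 was read as up to 3 counts. With 1 library per line no test was possible. The member search was tested on simulated data.

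Named loops were the 12 with most SW620 PETs, the 8 with most SW480 PETs, the 6 strongest of each part of the split, the 5 whose ratio interval started highest, the 5 whose interval ended lowest, the 3 longest and the 8 largest groups. A few loops and genes that these rules name are not reported here. Smaller groups without HCT116 and LS513 loops, and the 6 strongest with 2 different anchors, were added after their values were seen. The members and the gene lists were chosen with earlier results of these data known. Gene places in hg19 were written from general knowledge for 122 genes, and 121 were kept because the chromosome and either the length (within 20%) or a build offset shared with another gene (within 2 kb) matched RefSeq GRCh38.p14. TWIST1 was left out. Of the 121, 37 were added after loops were seen. Promoters were taken for genes whose written start and end shifted alike.

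The work used scipy 1.17.1, pandas 2.3.3, numpy 2.4.6, networkx 3.6.1 and matplotlib 3.10.9 under Python 3.11.15. Alternatives covered the overlap, widened anchors, unfiltered pairs, PET minimums, FDR, scaling and counting from SW480.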

Additional observations from a re-analysis of the deposited data

How the results depend on the processing

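Of 67 alternative values, 65 planned and 2 added after seeing the data, 40 stayed within 1.5 times the count or within the counting interval, 26 moved and 1 changed direction. With at least 2 PETs in the SW620 loop and in a single SW480 loop, 516 members were left, 11.4% with anchors at both ends, a median span of 45.5 kb, 238 lower in SW620 and a self-pair ratio to HCT116 of 1.45. With an FDR under 0.01 in both, 160 were left, with 14.4%, 137 kb, 74 above the floor, 72 lower, and self-pair ratios of 1.76 to HCT116 and 1.58 to LS513. With minimums matched to 1 SW480 PET (11 PETs in SW620, 6 in HCT116, 16 in LS513), 312 were left, of which 66.3% had anchors at both ends, with 45.1 kb, 84 lower and ratios of 1.68 and 1.74. That share counts loops that HCT116 or LS513 list below the minimum. Counted from SW480 loops, 462 were above the floor, 7 were higher and 274 lower in SW620, and the ratios, now of SW480, were 2.41 and 2.46. With anchors of filtered loops only, 12.8% had anchors at both ends. Scaled by all PETs, 487 were above the floor. Per kb of anchor the self-pair ratio to HCT116 turned to 0.953, and that to LS513 was 1.05. Leaving out HCT116 gave 1642 members and leaving out LS513 gave 1912. Where no value says otherwise, the cause was not tested.

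No paired analysis was possible because each line had 1 library. SW480, with 13885 filtered PETs, limits which loops can be found at all, and 382 members rest on 1 PET in each line. Anchor sets differ between lines, and HCT116 and LS513 share theirs, so absence at a place without an anchor is no measurement.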
